A study of Mus musculus with 4 samples.

Results

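Endocardial cells are the endothelial cells that line the chambers of the heart, and 1661 nuclei were picked out by genes of these cells from single-nucleus RNA libraries of mouse right ventricles (RVs). A barcode was kept when it held at least 200 genes and under 10% mitochondrial transcripts. It counted as endocardial when Ryr2, a calcium channel of cardiomyocytes (CMs), made up under 1% of its unique transcript counts (UMIs), when the endocardial genes Npr3, Tmem108 and Nrg1 together had at least 3 UMIs, when the endothelial genes Ptprb, Pecam1, Cdh5 and Flt1 had at least 1, and when Pdgfra, Pdgfrb and Mrc1, genes of fibroblasts, pericytes and macrophages, had at most 1. The members were thus chosen by their measured UMIs of these 11 genes, which are described and not tested. These 1661 nuclei came from 48428 barcodes kept and 53090 in all. In the order sham 1, sham 2, RVVO 1 and RVVO 2, which is used for every list of 4 values, there were 341, 343, 332 and 645.

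The mice were C57BL/6 pups operated on at postnatal day 7. The right ventricular volume overload (RVVO) group had a needle passed from the abdominal aorta into the inferior vena cava, which leaves a fistula that returns arterial blood to the right heart, and the sham group had the same operation without the puncture. RVs were taken at postnatal day 21, and each group had 2 libraries. The study's methods also describe cyclosporine A or saline injections after surgery and do not say which these mice received, and neither the labels nor the methods say whether a library came from 1 mouse or a pool. P-values over libraries therefore measure the spread between these libraries, which may be technical. No transgene or mutant allele is named in either group.

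The endocardium is a single layer between the blood and the trabecular muscle. It signals to the muscle beneath it with neuregulin 1, and it binds and clears natriuretic peptides through Npr3. During development it is the source of the valve mesenchyme, through a transition driven by TGF-beta, BMP and Notch signals. Capillary endothelium, which makes up most of the endothelium of the ventricle, is known instead for passing fatty acids from the blood to the CMs.

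The UMIs of the endocardial nuclei added up to 1291633, 1254740, 1626305 and 2405695. The median nucleus had 3021, 3117, 4282 and 3038 UMIs, so RVVO 1 was the deepest. The comparison class, called other endothelial nuclei, had at least 3 UMIs over the same 4 endothelial genes, none over Npr3, Tmem108 and Nrg1, and passed the other limits. It held 3833, 3855, 1523 and 1806 nuclei with medians of 2159, 1874, 2885 and 2568.5 UMIs. The endocardial nuclei needed only 1 UMI of the 4 endothelial genes, so the limit of 3 favours endothelial transcripts in the comparison class. The part of this limit in endothelial genes that were lower in endocardial nuclei was not tested. Of 52813 distinct barcodes, 276 were found in more than 1 library, and 0 of these were endocardial in both.

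Sex was not balanced between the groups. Xist, the transcript of the inactive X chromosome in female cells (chromosome X, 103460366 to 103483254 of GRCm38), had 2283, 2101, 0 and 0 UMIs in the endocardial nuclei. Uty, a Y-linked demethylase gene (chromosome Y, 1096861 to 1245759), had 0, 0, 493 and 658 UMIs. The sham libraries thus carried female and the RVVO libraries male transcripts, and an effect of sex and one of surgery cannot be told apart wherever the groups are compared below.

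The nuclei were described with 2 endocardial marker genes that the rule did not use. Both belong to the marker list of this class, which was chosen with earlier results of these data known. Their values are therefore no independent check of the name. Vwf, the gene of the clotting protein von Willebrand factor (chromosome 6, 125546774 to 125686679), had 1356, 1332.5, 1628 and 1405 CPM (a gene's UMIs scaled by all UMIs of those nuclei in that library) in the endocardial nuclei. The other endothelial nuclei had 49.9, 64.3, 104 and 75.3 CPM, and nuclei with at least 1% Ryr2, which are CM nuclei in the main and should lack Vwf, had 18.1, 10.6, 28.3 and 29.2 CPM. Cgnl1, which encodes the junction protein paracingulin (chromosome 9, 71626509 to 71771602), had 1032, 1180, 1419 and 1045 CPM against 85.4, 103.5, 86.8 and 106 in the other endothelial nuclei. Both genes were higher in each of the 4 libraries, with log2 fold changes of 4.30 (standard error 0.109) for Vwf and 3.58 (standard error 0.104) for Cgnl1 and adjusted p-values of 1.32e-12 and 3.85e-12 (edgeR's quasi-likelihood test with the library as a block, Benjamini-Hochberg adjustment over all genes). After each nucleus was thinned to 1000 UMIs, Vwf was found in 58.7%, 51.7%, 67.1% and 61.6% of endocardial nuclei (74.5%, 64.4%, 80.4% and 78.1% before thinning), 3.86%, 4.96%, 7.57% and 5.87% of other endothelial nuclei (7.44%, 7.99%, 16.2% and 14.4%) and 1.68%, 1.58%, 1.92% and 2.84% of the Ryr2 nuclei (5.99%, 4.46%, 11.9% and 11.5%). The thinning left out 18 endocardial nuclei with fewer UMIs. The CM gene Ttn was found in 99.1%, 95.8%, 96.7% and 95.5% of the thinned endocardial nuclei, and whether as free RNA was not tested.

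The 3 genes of the rule were not found equally often. Npr3 with Tmem108 marked 42.7% of the members, all 3 genes 32.1%, Tmem108 alone 15.9%, and Tmem108 with Nrg1 5.30%. Members with an Nrg1 UMI numbered 152, 121, 137 and 237, and their Vwf level was 1648, 2424, 2001 and 1968 CPM against 1107, 756, 1335 and 1094 CPM in members without one. At the edge of the rule, nuclei with exactly 3 marker UMIs numbered 31, 38, 34 and 65, and their Vwf level was 342, 460, 454 and 624 CPM. Nuclei just outside, with 2 marker UMIs, numbered 76, 75, 47 and 116 and had 185, 103, 476 and 219 CPM of Vwf.

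Not every nucleus that met the rule had the transcripts of endocardium. A set of 6 genes of the epicardium, the mesothelial sheet on the outside of the heart (Upk3b, Msln, Muc16, Bnc1, Lrrn4 and Upk1b), had at least 2 UMIs in 34, 75, 32 and 99 members, which is 240 of 1661 or 14.4%. In those nuclei the 6 genes summed to 2067, 2428, 3197 and 2133 CPM, while Vwf had 16.0, 25.9, 27.8 and 187 CPM. Nuclei with at least 5 UMIs of the 6 genes and no endothelial UMI had 3001, 3038, 3400 and 2824 CPM of them. Tmem108, which the rule counts as endocardial, had 911, 1238, 936 and 1061 CPM in the 240 members. The whole list of 7 epicardial genes, each of which was found in every library, summed to 484, 840, 539 and 672 CPM in the endocardial nuclei against 154, 203, 157 and 207 CPM in the other endothelial nuclei. Its most abundant gene was Wt1 or Muc16 in the endocardial nuclei. In the other endothelial nuclei Wt1, which is not among the 6 genes above, made up most of the sum, at 138, 160, 130 and 148 CPM.

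A smaller number of members, 27, 26, 27 and 31, had at least 2 UMIs of 7 glial genes. The share of members with high doublet scores was 14.1%, 16.0%, 5.12% and 14.7%. The share marked in a library was fixed beforehand at 0.8% per 1000 barcodes, which marked 12.5%, 12.3%, 6.97% and 10.7% of all barcodes. The low value of RVVO 1 thus goes with its 8700 barcodes. Among other endothelial nuclei 9.13%, 8.90%, 4.01% and 9.14% were marked. The results below use every nucleus that met the rule, and those that rest on the epicardial or glial nuclei are given again without them.

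**Figure D1:**
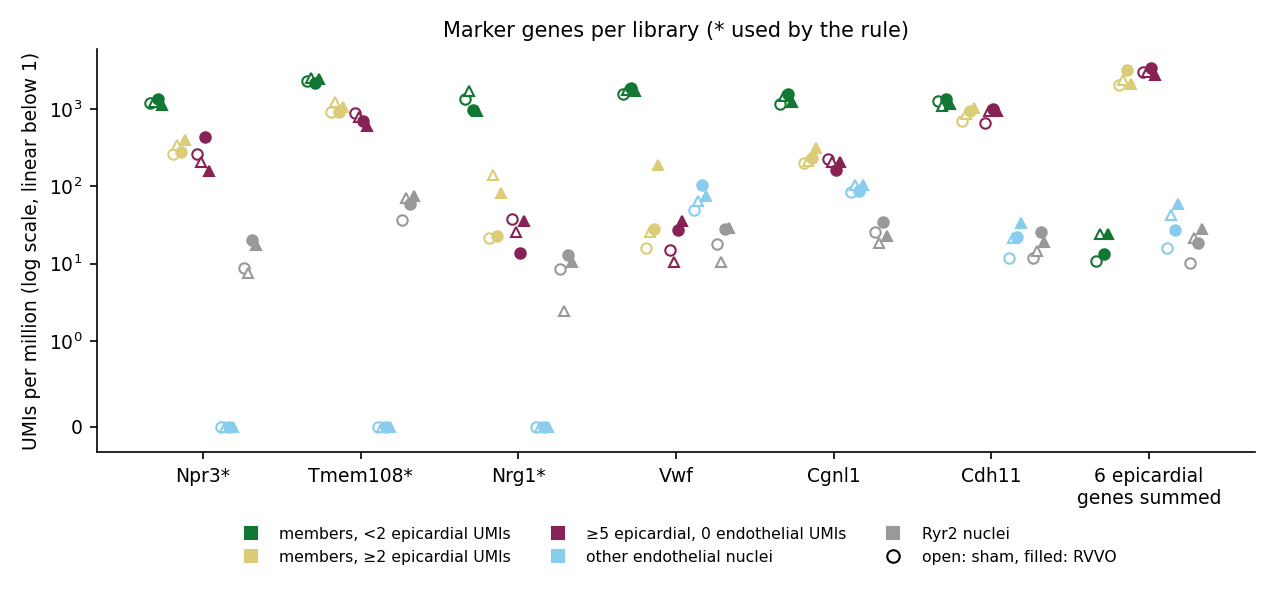
Levels of 6 genes and of the 6 epicardial genes summed, in CPM (log scale, linear below 1), for 5 classes of nuclei in each library. Circles are libraries 1 and triangles libraries 2, open for sham and filled for RVVO, and an asterisk marks the genes the rule used. Vwf lay at 1332.5 to 1628 CPM over all members and at 16.0 to 187 CPM in the members with at least 2 epicardial UMIs, while the nuclei with at least 5 epicardial and no endothelial UMIs had 10.4 to 36.0 CPM.

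The share of endocardial nuclei differed between the groups without overlap. Of the nuclei kept, they were 2.63% and 2.36% in the sham libraries and 4.03% and 5.10% in the RVVO libraries, with 95% Wilson intervals of 2.37 to 2.92, 2.12 to 2.61, 3.62 to 4.47 and 4.73 to 5.50, which cover counting error only. The means were 2.49% ± 0.192 (SD, n = 2) and 4.57% ± 0.763, a difference of 2.07 percentage points. An exact two-sided permutation test gave p = 0.3333, which is the smallest p that 2 libraries against 2 allow. Among endothelial nuclei, endocardial and other together, they made up 8.17%, 8.17%, 17.9% and 26.3%, a difference of 13.9 percentage points with the same smallest p of 0.3333 (exact test). Both RVVO libraries were above both sham libraries on either denominator.

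**Figure D2:**
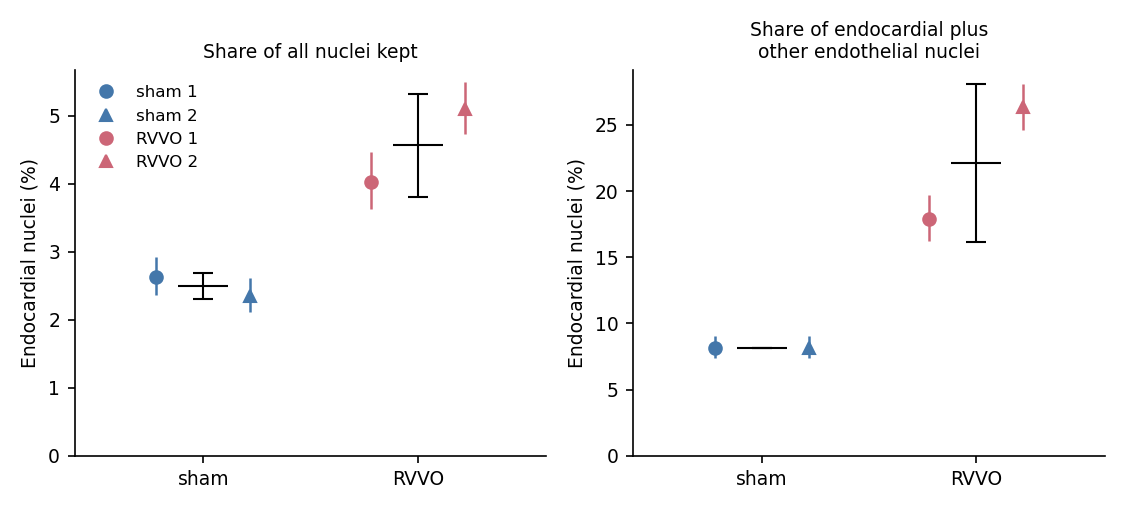
Endocardial nuclei as a percentage of the nuclei kept (left) and of endocardial plus other endothelial nuclei (right) in each library. Coloured points are libraries with 95% Wilson intervals, and the black bars are the mean and SD of the 2 libraries of a group. On both axes the RVVO libraries, at 4.03% and 5.10% and at 17.9% and 26.3%, lie above the sham libraries.

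The other endothelial nuclei went from a mean of 28.0% of the nuclei kept in the sham group to 16.4% in the RVVO group. A larger endocardial share and a smaller share of the other classes cannot be told apart within such percentages. The libraries were not cut at the same depth, as RVVO 2 held no barcode under 1561 UMIs. The endocardial nuclei with the fewest UMIs had 812, 680, 971 and 1563. Among barcodes with at least 1561 UMIs the shares were 3.41%, 3.09%, 4.11% and 5.10%, a difference of 1.36 points in place of 2.07. The difference was 1.10 points when every nucleus was thinned to 1000 UMIs before the rule, and 3.48 points without the limit on Pdgfra, Pdgfrb and Mrc1. It was 1.37 points with Tmem108 left out of the rule. Without the nuclei that had at least 2 epicardial UMIs the difference was 1.88 points, and without those that had at least 2 glial UMIs it was 1.98 points. Nrg1, a gene of the rule, is given as a description only, at 1178, 1317, 845 and 764 CPM in the endocardial nuclei, while Npr3 had 1080, 1010, 1215 and 972 CPM and Tmem108 had 2125, 2224, 2027 and 2191.

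Endocardial nuclei were next compared with the other endothelial nuclei of the same libraries. Of 13433 genes tested, without those of the rule, 4951 or 36.9% passed an adjusted p of 0.05, with 2463 (18.3%) higher and 2488 (18.5%) lower in endocardial nuclei. The median log2 fold change over all genes was -0.00034. Leaving out the nuclei with at least 2 epicardial UMIs left 4288 calls, of which 3871 were among the 4951 with the same direction and 25 with the opposite one.

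Among the 15 named genes with the highest fold changes, 3 stood at the top. Tuft1, the gene of the enamel protein tuftelin (chromosome 3, 94612757 to 94658872), had 105, 150, 183 and 159 CPM against 1.09, 1.74, 2.15 and 3.81 (log2 fold change 6.10 with SE 0.162, edgeR's adjusted p = 1.73e-12). Smoc1, a secreted calcium-binding protein of basement membranes (chromosome 12, 81026808 to 81186414), had 217, 183, 236 and 187 CPM against 2.67, 2.67, 5.09 and 4.50, a log2 fold change of 5.81. Cdh11, a cadherin of mesenchymal cells (chromosome 8, 102632095 to 102785642), had 1182, 1052, 1292 and 1132 CPM against 11.8, 21.5, 21.9 and 33.6, a log2 fold change of 5.75. No library of one class came near any library of the other for these 3 genes.

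Col4a3 and Col4a4 encode the type IV collagen chains best known from the basement membrane of the kidney glomerulus. They lie head to head on chromosome 1, Col4a3 from 82586921 to 82722059 on the forward strand and Col4a4 from 82448423 to 82586849 on the reverse strand, with starts 72 bases apart. Col4a3 had 495, 491, 627 and 270 CPM against 10.3, 9.98, 16.3 and 12.6, a log2 fold change of 5.23. Col4a4 had 599, 577, 812 and 333 CPM against 18.2, 19.1, 28.4 and 17.1, a log2 fold change of 4.77. The pair had the same order of libraries, highest in RVVO 1 and lowest in RVVO 2. The common chains Col4a1 and Col4a2 went the other way, with log2 fold changes of -1.29 and -1.41, and Col4a5, the partner chain of Col4a3 and Col4a4, was higher by 1.11.

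Among the other genes with the highest values, Chrm3, the muscarinic M3 receptor, had 1307, 1386, 1481 and 842 CPM against 29.5, 51.3, 72.3 and 32.4, a log2 fold change of 4.79. Nrxn3, a neurexin of synapses, was higher by 4.87, Plagl1, an imprinted zinc finger factor, by 4.70, the sodium leak channel Nalcn by 4.67, Ahsg, the gene of the calcification inhibitor fetuin-A, by 4.64, and the peptidase Dpp4 by 4.54. These held without the nuclei with at least 2 epicardial UMIs, at 4.10 for Dpp4 and 4.97 to 5.19 for the rest. For the other 4 genes of this rank the value changed more. Muc16, the mesothelial mucin, had 143, 263, 272 and 200 CPM and a log2 fold change of 4.58 over all members, and -0.29 without those nuclei, a fall that the choice of nuclei by their Muc16 UMIs fixes and that is no test of the gene. Of genes that this choice did not use, Pcdh15, a protocadherin of hair cells, went from 4.61 to 0.77 (adjusted p = 0.0844, edgeR), Bmpr1b, a BMP receptor, from 5.12 to 1.99 with its call kept, and Wwc1, a Hippo pathway regulator, from 5.09 to too few counts for a test.

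At the other end were the 10 named genes with the lowest fold changes. Btnl9, a capillary gene of the butyrophilin family, had 70.5, 31.9, 51.0 and 43.6 CPM against 263, 251, 307 and 289 (log2 fold change -2.55 with SE 0.128, edgeR's adjusted p = 9.03e-10). Pparg, the nuclear receptor that drives fat uptake and storage, had 257, 135, 127 and 181 CPM against 935, 850, 775 and 868, a log2 fold change of -2.36. Rgcc, a cell cycle regulator used as a capillary marker, had 102, 52.6, 73.8 and 47.4 CPM against 428, 309, 393 and 247, a log2 fold change of -2.37. The adipokine gene C1qtnf9 (-2.57), the nucleoside transporter Slc28a2 (-2.45), the sialyltransferase St8sia4 (-2.44), the glycerol channel Aqp7 (-2.43), the cAMP sensor Rapgef4 (-2.38), the adhesion receptor Adgrg1 (-2.36) and the T-box factor Tbx3 (-2.34) completed the group. All 10 were called again without the epicardial nuclei, with log2 fold changes from -2.33 for Rgcc to -2.55 for Btnl9.

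**Figure D3:**
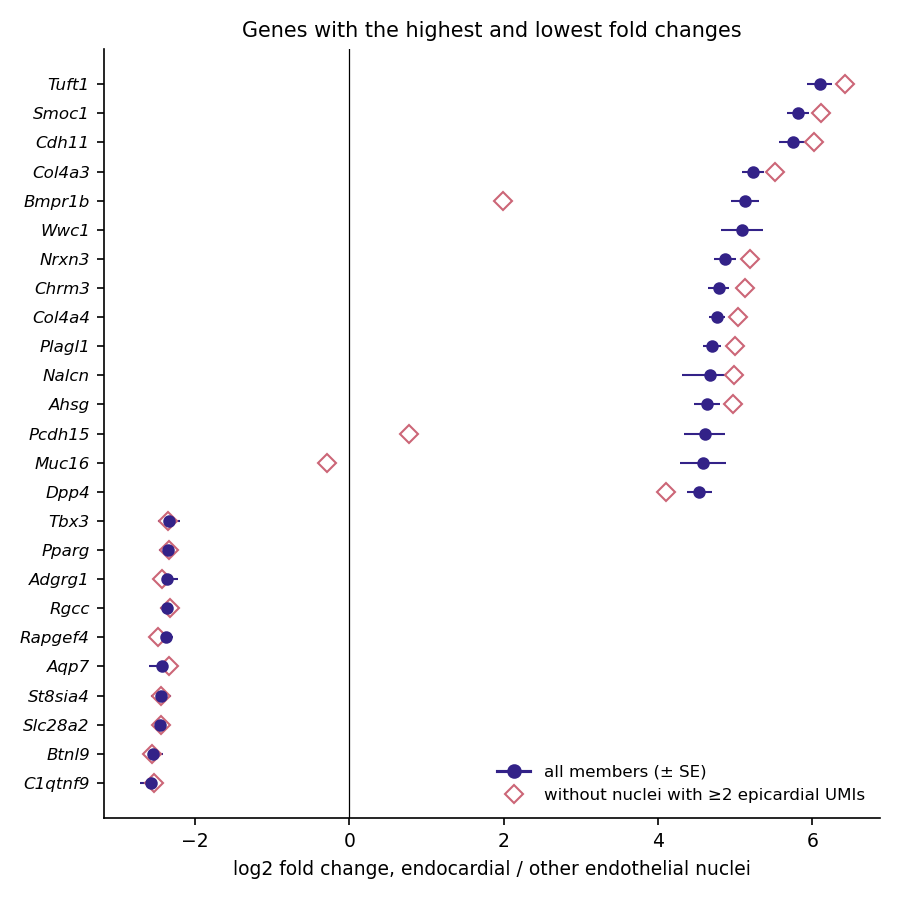
Log2 fold changes of the 15 genes highest and the 10 lowest in endocardial against other endothelial nuclei (filled circles, bars are 1 standard error) and the same without nuclei that had at least 2 epicardial UMIs (open diamonds). Pcdh15 and Bmpr1b move towards 0 when those nuclei are left out, Muc16, by whose UMIs they were chosen, moves past it, Wwc1 then has no value, and the other genes keep their values to within 0.44.

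The counts of the lists that follow stand beside 18.3% higher and 18.5% lower over all genes, and a share near these is no result about a list. Signalling genes were read by role, beginning with the natriuretic and vasoactive genes, through which endothelium sets the tone of the muscle around it. Of 18 tested, 9 were higher and 5 lower, with a median log2 fold change of 0.66. Prkg1, the cGMP-dependent kinase that natriuretic peptides and nitric oxide act on, had 5944, 5920, 6469 and 5038 CPM against 604, 693, 620 and 669.5 (log2 fold change 3.14 with SE 0.0873, edgeR's adjusted p = 2.61e-12). Pde3a, a phosphodiesterase that cGMP inhibits, was higher by 3.02, at 2218, 2131, 2938 and 1895 CPM against 234, 292, 242 and 341. The prostacyclin enzymes Ptgs1 and Ptgis were higher by 3.08 and 2.25, the endothelin genes Ece1, Edn1 and Ednrb by 1.75, 1.30 and 1.06, the adrenomedullin receptor Calcrl by 0.95 and the nitric oxide synthase Nos3 by 0.90. Npr1, the signalling receptor for atrial natriuretic peptide, had 72.8, 79.7, 56.6 and 59.9 CPM against 67.7, 93.2, 73.3 and 68.8 and did not pass the test (adjusted p = 0.130, edgeR), whereas without the epicardial nuclei it was lower by 0.31 on the log2 scale (adjusted p = 0.0240). Ramp3 (-1.56), Npr2 (-0.72), Ace (-0.69), Ramp2 (-0.64) and Nppa (-0.41), the gene of atrial natriuretic peptide, were lower.

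Neuregulin and EGF genes beside Nrg1 gave 5 higher and 1 lower of 9 tested, and 1 higher and 2 lower without the epicardial nuclei. Tgfa, an EGF receptor ligand, kept its call, with 33.3, 53.4, 36.3 and 39.5 CPM against 2.67, 5.45, 3.13 and 5.54 and log2 fold changes of 3.25 with and 2.65 without those nuclei. Nrg2, another neuregulin, went from 3.12 to 0.50 and lost its call. Erbb4, a neuregulin receptor, had 269, 410, 323 and 355 CPM against 213, 235, 290 and 338, a log2 fold change of 0.31 that was called over all members (adjusted p = 0.0224, edgeR) and not without the epicardial nuclei (0.31, adjusted p = 0.0572). Erbb2 and Erbb3, genes of the same receptor family, had 2.08 to 10.5 CPM in either class and did not pass the test.

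Of 19 Notch genes, 7 were lower and 3 higher, the latter near the share over all genes, with a median of -0.17. The ligands Jag2 (-2.19) and Dll4 (-2.08), the modifier Mfng (-1.97) and the target Hey1 (-1.70) are arterial genes or act in sprouting vessels. Jag2 had 13.2, 7.17, 12.3 and 2.91 CPM against 36.3, 45.6, 36.2 and 32.0. Notch2 was higher by 0.86 and Notch1, the receptor of the endocardium in development, by 0.24, at 163, 157, 163 and 180 CPM against 135, 139, 136 and 139. Jag1 did not pass the test.

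BMP and TGF-beta genes were higher for 12 of 25 and lower for 4, with a median of 0.19. The ligand Tgfb2 had 78.2, 82.9, 83.0 and 69.0 CPM against 24.1, 22.6, 17.6 and 27.4, a log2 fold change of 1.73. The receptors Bmpr1a (1.32) and Tgfbr2 (1.08), the effector Smad3 (1.12) and the latent TGF-beta binding protein Ltbp1 (1.07) were also higher. The targets parted, with Id2 higher by 1.30 and Id1 lower by 1.52.

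VEGF and Tie genes were lower for 6 of 13 and higher for 2, and lower for 6 and higher for 4 without the epicardial nuclei. Kdr, the main VEGF receptor of capillaries, had 142, 113, 90.4 and 113 CPM against 346, 288, 371 and 352, a log2 fold change of -1.60. The lymphatic receptor Flt4 was lower by 1.28 on the log2 scale and Nrp2 by 1.26. Plvap, the protein of endothelial diaphragms, was higher by 3.86, at 51.9, 69.3, 60.9 and 79.8 CPM against 3.76, 3.83, 4.51 and 5.54, and the Tie2 ligand Angpt1 by 1.08. Of 18 flow response genes, 7 were lower, among them Klf4 (-0.92) and Klf2 (-0.71), and 4 higher, among them Nos3.

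Transcription factors of endocardium and valves and genes of mesenchymal transition gave 14 higher and 7 lower of 31 tested. Meis2, a homeobox factor, had 1069, 1129, 966 and 898 CPM against 123, 121, 152 and 164, a log2 fold change of 2.84. Gata4 (1.74) and Hand2 (1.35), which build the heart in development, Zeb2 (0.92) and the elastin gene Eln (1.19) were higher. Gata5 had the highest fold change of the list at 4.82, on only 3.87 to 7.99 CPM. Sox17 (-2.31), Sox18 (-1.97), Ets1 (-1.33) and Fli1 (-1.18) were lower. Nfatc1, the classical endocardial factor of valve development, had 75.9, 104, 80.6 and 78.1 CPM against 56.7, 74.3, 83.3 and 72.6 and did not pass the test (log2 fold change 0.21, adjusted p = 0.127, edgeR), whereas it was 0.49 (adjusted p = 0.00180) without the epicardial nuclei.

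Matrix and basement membrane genes split into 12 higher and 15 lower of 31, and 9 and 18 without the epicardial nuclei. The secreted factor Cytl1 (3.70) and the calcification inhibitor Mgp (1.34) were higher beside Smoc1. The capillary matrix genes Sparcl1 (-1.88), Hspg2 (-0.77) and Col15a1 (-0.72) were lower. Col1a1 and Col3a1, fibrillar collagens of fibroblasts, turned from 0.39 and 0.54 to -0.50 and -0.51 when the epicardial nuclei were left out.

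Of 28 guidance and adhesion genes, 12 were higher and 11 lower. Epha7, an ephrin receptor, had 260, 245, 280 and 180 CPM against 12.2, 15.9, 16.5 and 16.5, a log2 fold change of 3.96. Slit3, a guidance ligand, was higher by 2.81, the integrin Itga9 by 1.31 and the netrin Ntn4 by 1.12. The endothelial receptors Robo4 (-1.63) and Unc5b (-1.67), the arterial semaphorin Sema3g (-1.81) and the protocadherin Pcdh17 (-1.74) were lower. Sema3d and Sema3c went from 1.65 and 2.58 to -1.16 and 0.16 without the epicardial nuclei.

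Of 15 fatty acid uptake genes, 11 were lower and 1 higher, with a median of -1.09. Cd36, the fatty acid receptor, had 1061, 704, 942 and 900 CPM against 2976, 2532, 2825 and 2907 (log2 fold change -1.68 with SE 0.0764, edgeR's adjusted p = 3.21e-10). Gpihbp1, which holds lipoprotein lipase on capillaries, was lower by 1.95 on the log2 scale, its regulator Meox2 by 2.10, the carrier Fabp4 by 1.57 and the lipase gene Lpl by 1.09. Fabp5 was the exception, higher by 0.58. The 11 capillary markers were all lower, with a median of -1.95, and share 5 genes with this list (Gpihbp1, Cd36, Fabp4, Meox2 and Tcf15).

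Of 14 haemostasis genes, 5 were higher and 5 lower. Tfpi (1.44), Entpd1 (1.32) and Procr (1.77), which restrain clotting or platelets, were higher, and F8 (-1.31) and Thbd (-0.54) lower. Of 23 leukocyte adhesion and cytokine genes, 6 were higher, with Vcam1 at 167, 170, 175 and 190 CPM against 19.5, 24.7, 20.6 and 38.3, a log2 fold change of 2.77, and 8 lower, with the chemokine gene Cxcl12 at -2.01. Of 7 general endothelial genes that the rule did not use, 2 were higher and 5 lower, with a median of -0.47. Without the epicardial nuclei 2 were higher and 4 lower. Of 7 venous genes, 4 were higher and 1 lower, with a median of 0.61, and 4 and 0 without the epicardial nuclei. Of 11 arterial genes, 1 was higher and 8 lower, with a median of -1.26. Of 7 lymphatic genes, 5 were lower and 2 higher, and 4 and 1 without the epicardial nuclei. Reln (-3.75), Mmrn1 (-3.25) and Ccl21a (-1.94) were lower, Prox1 went from -0.65 to -0.45 and Pdpn from 2.45 to -0.45 without those nuclei, both losing the call, and Lyve1, a hyaluronan receptor also known from endocardium, was higher by 1.58.

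**Figure D4:**
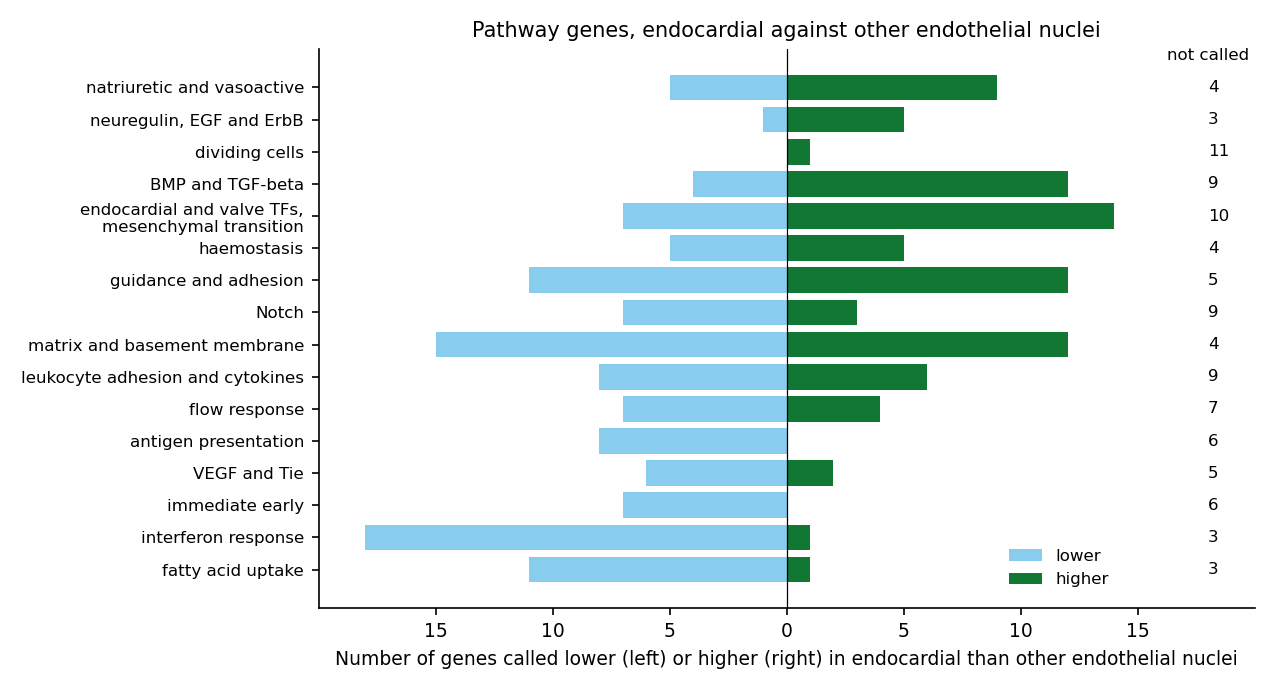
Number of genes of each pathway list called lower (left) or higher (right) in endocardial than in other endothelial nuclei at an adjusted p of 0.05, with the number tested but not called at the right edge. Interferon response has 18 lower and 1 higher, fatty acid uptake 11 lower and 1 higher, and the matrix list 15 lower and 12 higher.

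Genes of CMs and of other cell types also differed between the classes. The 12 CM genes were lower in endocardial nuclei in 12 of 12 cases, with a median log2 fold change of -0.55. Their summed level was 26771, 16917, 23047 and 23181 CPM against 37123, 24567, 32279 and 31429 CPM. Pericyte genes were lower in 6 of 7 tested, smooth muscle genes in 4 of 6, macrophage genes in 4 of 8 and erythroid genes in 4 of 5, with 0 higher in each list. Of 9 fibroblast genes, 5 were higher and 3 lower, or 2 and 5 without the epicardial nuclei. The part of all these genes in the smaller differences was not tested. Fewer calls were made against a narrower comparison class of 81, 100, 88 and 71 nuclei, where 9750 genes were tested. The part of its smaller size in the lost calls was not tested. Against the 340 other endothelial nuclei with at least 2 Vwf UMIs, 4235 of the 4951 called genes had enough counts for a test, and 1287 of the 4951 calls (26.0%) were made again in the same direction and 28 in the opposite one. Cdh11 (4.75), Chrm3 (4.24), Col4a3 (4.76), Prkg1 (2.40) and Pparg (-1.04) kept their direction and call there. Nos3 (-0.06), Edn1 (-0.34), Ptgs1 (0.38) and Aqp7 (-0.98) lost the call, and Calcrl (-0.80), Entpd1 (-0.43) and Eln (-1.34) were lower than in those Vwf-bearing nuclei.

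RVVO was then compared with sham within the endocardial nuclei. Of 10716 genes tested, 8 or 0.0747% were called by edgeR's quasi-likelihood test, with 497 at an unadjusted p under 0.05. Of the 8, 6 are the sex-linked genes Xist and Tsix, lower, and Uty, Eif2s3y, Kdm5d and Ddx3y, higher. Xist was at least 2313-fold lower in the RVVO group, and Uty, Eif2s3y and Kdm5d at least 245-fold, 107-fold and 51.0-fold higher, against a floor of 3 counts over the group at 0. Tsix overlaps Xist on the other strand and whether the counting used strand is not known here, so reads of the pair cannot be told apart.

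Snx17 was the autosomal gene that rose. It encodes a sorting nexin that returns receptors from endosomes to the cell surface, and lies on chromosome 5 from 31193227 to 31199143, where it overlaps the ends of Eif2b4 and Zfp513 on the other strand. Its level was 13.9, 12.8, 121 and 134 CPM (log2 fold change 3.23 with SE 0.212, edgeR's adjusted p = 0.000791). Both RVVO libraries were far above both sham libraries. Without RVVO 1 or RVVO 2 the log2 fold change was 3.27 or 3.18. The call was lost in both fits, where 1 RVVO library remains and the sham libraries alone give the spread. The same order held outside the endocardium, with 21.0, 15.1, 90.3 and 119 CPM in other endothelial nuclei, 9.72, 8.88, 94.4 and 117 CPM in the Ryr2 nuclei, and 15.1, 12.1, 105 and 129 CPM over all nuclei kept. The difference from the change in other endothelial nuclei did not pass the test (log2 difference 0.76, adjusted p = 0.975, edgeR).

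Csmd1, the gene of a large complement-regulating membrane protein (chromosome 8, 15892537 to 17535586), was the autosomal gene that fell. It had 138, 130, 42.4 and 40.7 CPM (log2 fold change -1.70 with SE 0.176, edgeR's adjusted p = 0.0173), against 59.5, 48.5, 57.0 and 72.2 CPM in other endothelial nuclei. Its UMIs came from few nuclei, 28 of 341, 26 of 343, 12 of 332 and 19 of 645, with up to 52, 51, 22 and 15 UMIs in a single nucleus. Of 178, 163, 69 and 98 UMIs in all, 154, 115, 47 and 6 were in the members with at least 2 glial UMIs and 83, 67, 33 and 94 in those with at least 2 epicardial UMIs, some nuclei having both. The members with neither, 297, 257, 284 and 530 nuclei, held 6, 6, 2 and 4 Csmd1 UMIs. The glial list moved with it, at 214, 203, 118 and 63.6 CPM with Cadm2 or Scn7a as its most abundant gene and 5, 7, 6 and 6 of its 7 genes found. Without the glial nuclei the log2 fold change was -0.17, and without the epicardial nuclei it was -2.90, and in neither case was Csmd1 called. The call was also lost with high doublet scores removed (-0.85), without the limit on Pdgfra, Pdgfrb and Mrc1 (-0.92) and after thinning (-1.69). Without sham 1, RVVO 1 or RVVO 2 the log2 fold change was -1.65, -1.76 or -1.64. The call was lost there too, in fits where the other group alone gives the spread.

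In the test of whether the change from sham to RVVO differed between endocardial and other endothelial nuclei, 1 of 13433 genes (0.00744%) was called, with 655 at an unadjusted p under 0.05. It was again Csmd1, with a log2 difference of -1.92 (adjusted p = 0.00411, edgeR). Without the nuclei with at least 2 epicardial UMIs, or without those with at least 2 glial UMIs, the Csmd1 difference was -3.02 and 0.78. With 640 and 561 genes at an unadjusted p under 0.05, 0 genes were called in either case. The count was 10 without sham 1, 46 without sham 2, 26 without RVVO 1, 47 without RVVO 2, 10 with high doublet scores removed and 34 without the low-count filter.

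Apart from the sex genes, no list had a call by edgeR between the groups in endocardial nuclei. DESeq2 called 1 gene of the glial list and 2 of the interferon response list, all lower. The endocardial markers outside the rule, Vwf and Cgnl1, had log2 fold changes of 0.16 and 0.15, and the 31 matrix genes, the 17 natriuretic and vasoactive genes and the 24 transcription factor and transition genes had medians of 0.06, 0.04 and -0.01. Nppa, the atrial natriuretic peptide gene, had 3.87, 81.3, 32.0 and 284 CPM, so the groups overlapped. The same order, at 8.90, 120, 54.5 and 296 CPM, was found in the other endothelial nuclei.

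Summed markers of some other cell types lay apart between the groups, in both directions. No test was run on these sums, and 2 libraries against 2 allow no exact permutation p under 0.3333. The macrophage list summed to 118, 108, 150 and 202 CPM with 9 of 9 genes found in each library and F13a1 or Cx3cr1 the most abundant. It includes Mrc1, which the rule limits and which had 6.97, 8.77, 12.9 and 19.1 CPM. The lymphocyte list summed to 5.42, 7.97, 17.8 and 44.9 CPM with 2, 4, 6 and 7 of 9 genes found and Bank1 or Pax5 the most abundant, and the adipocyte list to 10.1, 12.8, 26.4 and 19.1 CPM with 2, 4, 6 and 5 of 6 found and Cidea or Cidec the most abundant. The lymphocyte list rested on 7, 10, 29 and 108 UMIs and the adipocyte list on 13, 16, 43 and 46. The macrophage, lymphocyte and adipocyte lists were higher in both RVVO libraries. The pericyte list was lower in both, at 338, 414, 262 and 266 CPM with 8 of 8 found and Rgs5 or Abcc9 the most abundant, and includes Pdgfrb, which the rule also limits, at 25.5, 20.7, 17.2 and 19.1 CPM. The erythroid list, at 486, 688, 2079 and 590 CPM with Hbb-bs the most abundant and 6, 5, 6 and 5 of 6 found, was high in RVVO 1 alone. The part of these lists in the comparisons of the groups was not tested.

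The genes of dividing cells, 5 of which had enough counts, had a median of -0.74. Their whole list summed to 183, 60.6, 65.2 and 66.9 CPM in endocardial nuclei, where sham 1 stood apart, and to 57.5, 52.1, 85.4 and 107 CPM in other endothelial nuclei. Top2a, a topoisomerase of dividing cells, had 25.5, 15.1, 9.84 and 5.82 CPM against 5.83, 3.02, 9.99 and 13.2. The difference of its change between the classes was -2.79 on the log2 scale and did not pass the test (adjusted p = 0.119, edgeR).

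The interferon response list holds genes that cells switch on when type I or type II interferon is present. All 22 genes had enough counts, and 0 were called by edgeR, while DESeq2 called Rnf213 and Ifi44, both lower. Every one of the 22 had both RVVO libraries below both sham libraries, a pattern found in 1526 of the 10716 genes tested or 14.2%. Their median log2 fold change was -1.38, against 0.004 over all genes, and -1.42 without the epicardial nuclei. Their summed level was 3533, 2654, 921 and 1653 CPM, or 3093 ± 621 in the sham and 1287 ± 518 in the RVVO group (SD, n = 2), which is 2.40-fold higher in sham.

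Many of these genes are known to carry in their promoters the interferon-stimulated response element, to which factors such as Stat2 and Irf9 are recruited. Its core was searched as GAAANNGAAA on both strands, TTTCNNTTTC on the other, in the 250 bases before the start of each gene (RefSeq, GRCm38.p6). It was found in 8 of the 17 list genes that had a promoter sequence (47.1%) and in 936 of 27025 genes in all (3.46%). The 120 bases before the start are shown for the 4 of the 8 with the lowest log2 fold changes among those with a match in that stretch, read along the strand of the gene and with all matches, overlapping ones too, in capitals. They are Ifit1 at chr19:34640769-34640888 (forward strand), Rsad2 at chr12:26456453-26456572 (reverse), Gbp2 at chr3:142620543-142620662 (forward) and Isg15 at chr4:156200819-156200938 (reverse).
Ifit1: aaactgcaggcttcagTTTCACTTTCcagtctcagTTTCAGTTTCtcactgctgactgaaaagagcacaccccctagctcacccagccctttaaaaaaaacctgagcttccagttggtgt
Rsad2: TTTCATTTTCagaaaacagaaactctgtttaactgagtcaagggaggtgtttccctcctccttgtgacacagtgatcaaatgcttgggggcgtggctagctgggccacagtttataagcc
Gbp2: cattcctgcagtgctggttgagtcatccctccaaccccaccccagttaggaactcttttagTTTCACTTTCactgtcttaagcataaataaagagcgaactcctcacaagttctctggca
Isg15: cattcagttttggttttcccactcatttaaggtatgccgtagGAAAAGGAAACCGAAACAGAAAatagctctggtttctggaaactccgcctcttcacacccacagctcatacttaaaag
The matches are a description of the letters and not of binding. Ifit1, which binds viral RNA, had 39.5, 38.3, 6.76 and 12.5 CPM (log2 fold change -1.98 with SE 0.318, edgeR's adjusted p = 0.185). Rsad2, the antiviral enzyme viperin, had 94.5, 27.9, 14.1 and 21.6 CPM, Gbp2, a guanylate-binding protein, 146, 97.2, 10.5 and 75.7 CPM, and the ubiquitin-like modifier Isg15 31.7, 12.8, 5.53 and 10.4 CPM. In each of the 4 the lower sham library was still above the higher RVVO library.

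The most abundant gene of the list, Rnf213, a giant ubiquitin ligase, had 557, 499, 144 and 237 CPM (log2 fold change -1.49 with SE 0.230, edgeR's adjusted p = 0.165). Transcription factors were among the members, with Stat2 at 262, 249, 66.4 and 150 CPM, Irf7 at 28.6, 27.9, 4.30 and 12.5 CPM and Irf9 at 73.5, 62.2, 34.4 and 46.1 CPM. The lowest log2 fold changes were those of Oas2 (-2.27), Ifi44 (-2.16) and Ifit3 (-2.15), and the nearest to 0 was that of Irf9 (-0.76). RVVO 1 had the lower value of the RVVO pair in every gene but Oas2. The Ifit, Oas and Gbp genes belong to families with close relatives, whose reads the counting could divide.

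The same direction was found outside the endocardium. In the other endothelial nuclei of the same libraries the list summed to 4827, 3926, 1507 and 1969 CPM, and 13 of 22 genes were called lower (31 of 13754 genes or 0.225% were called there in all), with a median of -1.47. No gene of the list was called in the test of the difference between the classes, and the median difference was 0.09. In the Ryr2 nuclei the summed level was 1173, 558, 304 and 446 CPM. Endocardial nuclei had the lower level of the 2 endothelial classes in all 4 libraries, and 18 of the 22 genes were called lower and 1, Oasl2, higher in them than in the other endothelial nuclei, with a median of -0.69. Oasl2 lost that call without the epicardial nuclei. Free RNA and the nuclei's own transcripts cannot be told apart in these sums.

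Antigen presentation genes, many of which interferon also induces, had 0 calls among 14, with 14 negative log2 fold changes and a median of -0.95. Their summed level was 1770, 1808, 898 and 1637 CPM, so that RVVO 1 stood well below the other libraries and RVVO 2 little below the sham libraries. Both RVVO libraries were below both sham libraries in 8 of the 14, against 14.2% of all genes tested, among them Tap1, a peptide transporter, at 84.4, 59.8, 19.1 and 50.3 CPM, and Nlrc5, the regulator of MHC class I genes, at 149, 96.4, 41.8 and 56.5 CPM. H2-K1, an MHC class I gene, had 447, 528, 299 and 521 CPM, so that RVVO 2 lay within the range of the sham libraries. The motif was found in 1 of the 9 genes of this list that had a promoter sequence (11.1%).

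**Figure D5:**
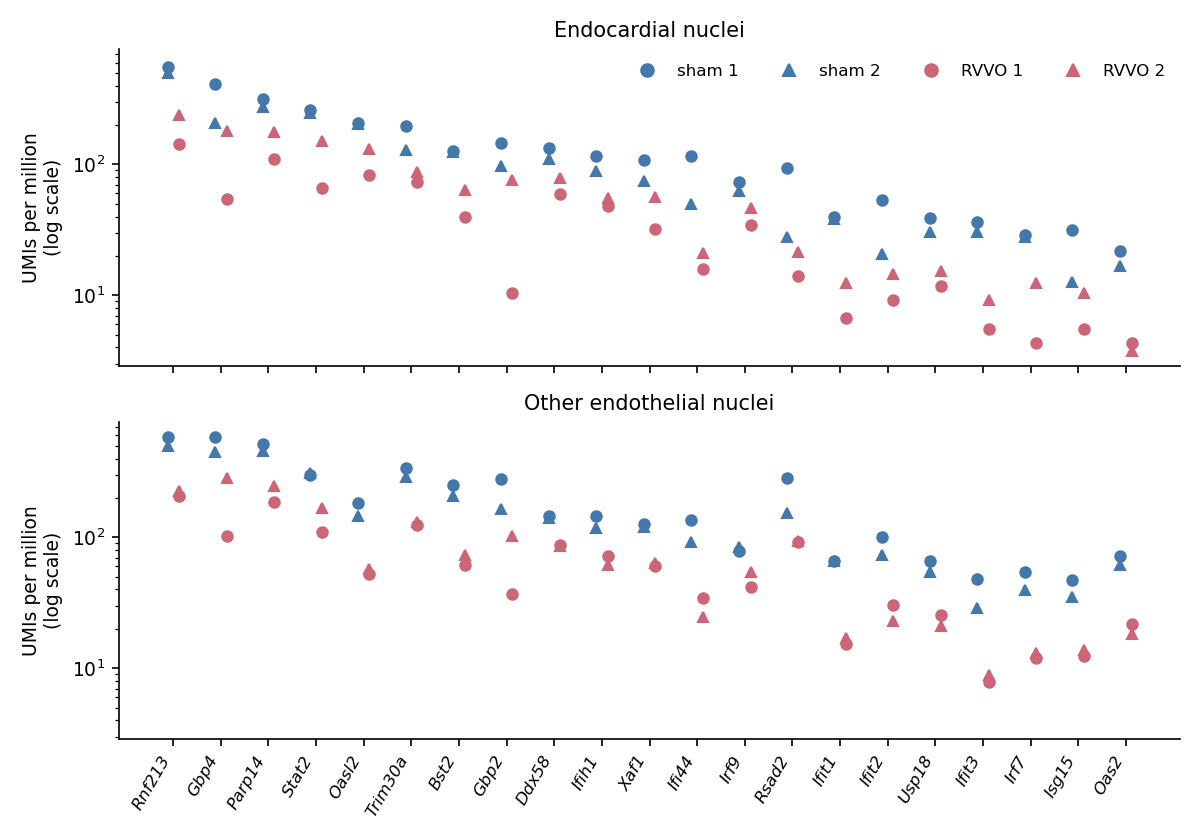
Levels of all but 1 of the 22 interferon response genes in CPM (log scale) in endocardial nuclei (top) and other endothelial nuclei (bottom) of the 4 libraries. In both classes the 2 RVVO libraries lie below the 2 sham libraries for each gene shown, and edgeR called 0 of 22 in endocardial and 13 of 22 in other endothelial nuclei.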

How the data were processed

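Single nuclei of right ventricles were sequenced by the authors with 10x 3′ chemistry in 2 sham and 2 RVVO libraries, and the deposited files hold whole-number counts of UMIs per gene and barcode. The submitters' processing notes name Cell Ranger 3.0.1, STAR, Seurat 3.0.2 and GRCm38, while the file headers name Cell Ranger 5.0.0. No annotation of cell types was used here. Total UMIs per library were 55516713, 51010039, 64739206 and 63422784. The members of the class, the gene lists and the tests were chosen with earlier results of these data known.

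Raw UMIs were summed per library and class. The classes were compared with edgeR 4.0.16 (quasi-likelihood test, TMM scaling, low-count filter, Benjamini-Hochberg adjustment, threshold 0.05), in 4 fits, for RVVO against sham in endocardial nuclei and in other endothelial nuclei, for endocardial against other endothelial nuclei with the library as a block, and for the difference between the changes. Shares were compared with exact permutation tests over libraries. Genes of the rule and mitochondrial genes were left out of all counts of calls. Genes named are, between classes, the 15 with the highest and 10 with the lowest fold change among calls with 1 direction in 4 of 4 libraries and a mean of at least 50 CPM, every gene called between groups, and the fixed lists. Unnamed gene models were left out of the names. High doublet scores were marked and removed only as an alternative. DESeq2 1.42.0, other scalings, filters, thresholds, thinning and left-out libraries were tried as alternatives, and those without epicardial or glial nuclei or without the limit on other cell types were chosen after seeing the data. On simulated counts the fits for RVVO against sham in endocardial nuclei, for the classes and for the difference recovered 94.8%, 97.9% and 72.2% of genes changed by 2 on the log2 scale, over 10518, 12784 and 13226 genes. The figure for changes of 1 was 44.4%, 78.7% and 37.1%. The simulated counts had 1 common spread for all genes of a fit and no other differences between libraries. For the difference the spread of the class fit was used. Real genes differ in spread, so these figures may overstate the recovery in the real libraries. Intervals of shares cover counting error only. Gene positions are those of GENCODE vM21 on GRCm38, and promoter sequences are from RefSeq. The values of 1 gene of the interferon list are not reported here, although the counts and sums of the list include it.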

Additional observations from a re-analysis of the deposited data

Results flagged for a closer look

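Csmd1 was the gene whose change from sham to RVVO differed between endocardial and other endothelial nuclei by a test of the difference itself, with a log2 difference of -1.92 (edgeR's quasi-likelihood test, adjusted p = 0.00411). The call was lost without the epicardial nuclei (-3.02), without the glial nuclei, where the difference turned to 0.78, and without the limit on Pdgfra, Pdgfrb and Mrc1 (-1.03). Its level was 138 and 130 CPM in the sham and 42.4 and 40.7 CPM in the RVVO endocardial nuclei, and 59.5, 48.5, 57.0 and 72.2 CPM in the other endothelial nuclei. Members with fewer than 2 glial and fewer than 2 epicardial UMIs held 6, 6, 2 and 4 of its 178, 163, 69 and 98 UMIs.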

How the results depend on the processing

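The share of endocardial nuclei was higher in RVVO under every alternative tried, by 1.10 to 3.48 points of the nuclei kept and 9.73 to 18.1 points of endothelial nuclei, and by 1.53 to 2.61 and 9.73 to 18.1 points with 1 library left out. Tmem108 left out of the rule gave 1.37 points, thinning 1.10, barcodes above the common lowest UMI count 1.36 and no limit on Pdgfra, Pdgfrb and Mrc1 3.48. The 8 genes called between the groups were 18 with DESeq2, 92 without the low-count filter, 17 with the replicate number as a block and 1 to 15 with 1 library left out (1 without RVVO 1, 2 without RVVO 2, 15 without sham 2). The replicate numbers share only a number, with a correlation of deviations of 0.101 over 10740 genes. The 4951 genes called between the classes were 3291 after thinning, 1429 against the Vwf-bearing nuclei, 3629 without the library block (no replicate block) and 4155 to 4419 with 1 library left out. The 1 gene called in the test of the difference became 2 with DESeq2, 34 without the filter, 9 after thinning, 5 with at least 5 marker UMIs, 2 with Ryr2 under 0.5%, 10 with high doublet scores removed, 4 without the limit, 0 without epicardial or glial nuclei and 10 to 47 with 1 library left out. Muc16 turned to -0.29 without epicardial nuclei, which are chosen in part by its UMIs, and the Csmd1 difference to 0.78 without glial nuclei. The causes were not tested. The 2 libraries a group limit the precision of each difference. Where the groups are compared with 1 library left out, the other group alone gives the spread.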
